A study of Homo sapiens with 6 samples.

Results

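Integrins and the cytoplasmic proteins of focal adhesions were followed in PANC-1 cells, a human pancreatic cancer cell line, after silencing of ZDHHC20, an enzyme that attaches palmitate to proteins. The members were listed by family and role, as 13 integrin alpha subunits, 8 beta subunits and 17 cytoplasmic adaptors, with earlier results of these data known. Of the 38 genes listed, 36 had a row in the deposited table of 27394 genes, and 35 averaged at least 1 across the 6 libraries and were tested among 22189 genes in all. ITGA4 and ITGA8 were not analysed here, and TNS1, listed at 0 in 4 of 6 libraries, was above 0 in shControl replicate 2 (4.02) and shZDHHC20 replicate 2 (1.88) and was not tested.

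The control group carried a control shRNA (shControl, 3 libraries) and the other group an shRNA against ZDHHC20 (shZDHHC20, 3 libraries), in the same cell line and medium. The libraries were made from total RNA with a kit that marks the strand. The labels do not say that the libraries of a group came from separate cultures, and the study describes its in vitro experiments in general as having biological replicates without naming these libraries, so p-values measure the spread between these libraries. The labels do not say which shRNA sequence each library carried.

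An integrin is a pair of one alpha and one beta subunit that spans the plasma membrane, holds matrix proteins such as collagen, laminin or fibronectin outside the cell, and grips the actin cytoskeleton inside it through adaptors. The alpha subunit largely sets the ligand, and β1 is the partner of most alpha subunits in epithelial cells. Talins and kindlins bind the beta tail and switch the receptor on, the ILK, PINCH and parvin complex and the tensins link it to actin, and FAK, SRC and p130Cas pass the signal on. Some integrin subunits are themselves palmitoylated, a modification that RNA levels do not show.

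The values are normalized counts, that is, reads per gene divided by one size factor per library and not by gene length. The recovered reads numbered from 16575546 to 18441049 per library. ZDHHC20 itself was at 42.5% of the control by its fitted fold change, with no overlap between groups. Between libraries, shZDHHC20 replicate 2 stood apart. Its SD of log2 differences over 4136 well expressed genes was 0.178 and 0.198 from the other replicates of its group. The SD was 0.0674 to 0.0722 for the other pairs within a group, and 0.211 to 0.24 for pairs across groups. The epithelial markers KRT8, KRT18 and KRT19 and the marker VIM were all abundant, at 5771 or more in every library, while KRT7 lay between 63.6 and 122. EPCAM, another epithelial marker, was low in the shControl libraries (56.1 to 95.4) and higher in the shZDHHC20 libraries (477 to 563, adjusted p = 6.7e-07 from limma). The summed leukocyte markers (6 of 7 with a row) were 112.5 to 149.5 in the shControl group and 86.6 to 107 in the shZDHHC20 group, the summed fibroblast markers (4 of 6, mostly COL1A1) 3967 to 4041 and 3194 to 3476, and the endothelial markers (3 of 5) 40.05 to 55.6 and 32.9 to 47.7. Among these markers PTPRC, CDH5 and VWF reached at most 6.36, 8.66 and 2.02 in any library. Others were higher, with CORO1A up to 81.1, CD14 up to 41.3, LAPTM5 up to 34.4 and KDR up to 45.5. Their part in the results was not tested. All libraries were of the PANC-1 line, so these sums do not show that cells of such types were present. Bulk values also cannot tell a smaller share of expressing cells from less RNA per cell.

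To show where members that moved in opposite directions start, the 250 bases before a RefSeq start are given for ITGB1 and ITGB5, the beta subunits called, and for ITGA5, the α5 partner of β1. All 3 windows are on the minus strand of GRCh38.p14 and are written 5′ to 3′. They lie at chr10:32958231-32958480 for ITGB1, the more upstream of its 2 listed starts, at chr3:124887366-124887615 for ITGB5, the most downstream of its 3 listed starts, and at chr12:54419267-54419516 for ITGA5. By the gene spans given below, the ITGB1 and ITGB5 windows lie within their genes, and the ITGA5 window crosses the point where its gene starts. Capitals mark GGAATG, the core motif of TEAD factors.
ITGB1: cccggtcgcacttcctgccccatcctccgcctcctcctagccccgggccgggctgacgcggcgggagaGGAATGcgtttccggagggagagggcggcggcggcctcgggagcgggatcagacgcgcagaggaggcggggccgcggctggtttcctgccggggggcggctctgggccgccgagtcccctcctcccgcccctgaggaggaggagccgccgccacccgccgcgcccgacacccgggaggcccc
ITGB5: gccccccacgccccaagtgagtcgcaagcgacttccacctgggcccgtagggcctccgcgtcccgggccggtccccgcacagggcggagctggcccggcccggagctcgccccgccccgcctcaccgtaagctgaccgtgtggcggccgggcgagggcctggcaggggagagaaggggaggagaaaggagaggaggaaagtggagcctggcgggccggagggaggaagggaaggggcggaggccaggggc
ITGA5: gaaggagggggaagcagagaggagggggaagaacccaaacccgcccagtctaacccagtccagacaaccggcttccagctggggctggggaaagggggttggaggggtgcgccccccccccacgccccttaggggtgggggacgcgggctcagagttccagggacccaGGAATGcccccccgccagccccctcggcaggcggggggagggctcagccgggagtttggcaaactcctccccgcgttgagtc
The ITGB1 and ITGA5 windows held GGAATG once each, and the ITGB5 window did not hold it. Nor did the window at the other ITGB1 start or those at the other ITGB5 starts. Windows were found for 27 of the 38 genes, 47 windows in all since some genes have several starts. On either strand, GGAATG was in 7 of the 47 windows (14.9%) and in 11.9% of 35116 windows of all genes. The AP-1 motif TGANTCA was in 2 of the 47 windows (6.57% of all), the E-box CACGTG in 2 (6.34% of all) and the CArG box in 1 (1.16% of all). No window of the members held more than one of these motifs, and a match describes letters and not binding.

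With ZDHHC20 silencing, 12 of the 35 members tested changed, 9 of them lower and 3 higher. Those that fell were 5 alpha subunits (ITGA1, ITGA2, ITGA3, ITGA5 and ITGAV), the beta subunit ITGB5, and the adaptors TLN2, FERMT2 and ZYX. Those that rose were ITGB1, TNS3 and TNS4. The test was limma's moderated test on log2(normalized count + 0.1), two-sided, with Benjamini-Hochberg adjustment across the 22189 genes and a threshold of 0.05, and it called 34.3% of the members where 11.5% of all genes tested were called. By direction, 6.84% of all genes were called lower and 4.61% higher. The share over all genes includes many at low values and was not matched to the levels of the members. With a mean of at least 5 required, 2822 of 16888 genes were called, 14 members among them. All 12 had groups that did not overlap, as had 17 of the 35 members and 28.6% of all genes. The median log2 fold change was -0.07 over the members and 0.01 over all genes.

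Without the mean-variance trend of limma, ITGB5 alone stayed past the threshold (adjusted p = 0.0283, 351 genes called over all). The main fit called 12 members among 2541 of 22189 genes. With edgeR's quasi-likelihood test on the recovered reads the same 12 members were called, among 2739 genes. With DESeq2 the number was also 12, with BCAR1 in place of ITGA1, among 2656 genes. In limma without shZDHHC20 replicate 2 it was 16, of which 12 were lower, among 4268 genes. Without shControl replicate 1 or 3 it was 7, among 1036 and 1042 genes.

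Among the alpha subunits listed as members, 5 of 11 tested were lower and 0 higher, with a median of -0.16. Among beta subunits, 1 of 8 was lower and 1 higher, with a median of -0.05. Among cytoplasmic adaptors, 3 of 16 were lower and 2 higher, with a median of -0.04. The classes hold few genes and the difference between them was not tested. Both directions were seen among beta subunits and adaptors.

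**Figure D1:**
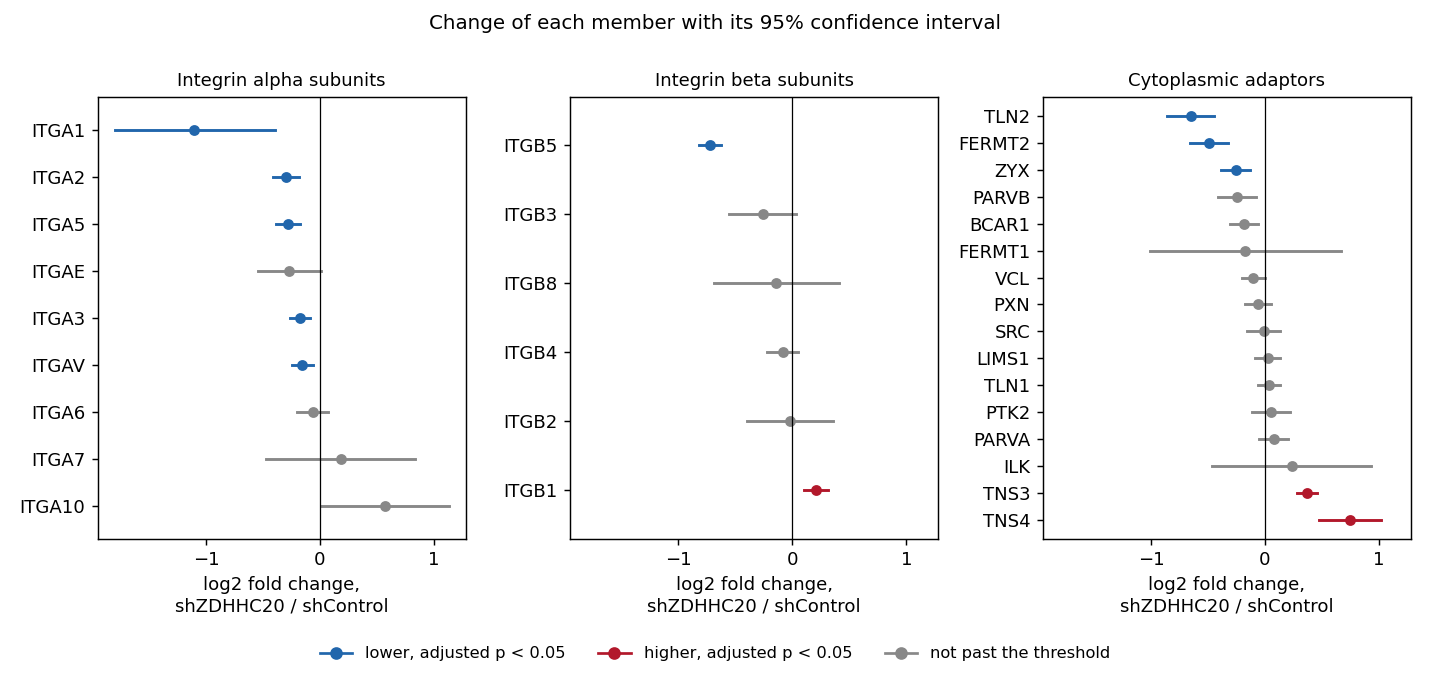
Log2 fold change of each tested member with a mean of at least 10 (points) and its 95% confidence interval from limma (lines), with alpha subunits, beta subunits and cytoplasmic adaptors in separate panels on one log2 scale. The 5 alpha subunits called sit left of 0 in blue, ITGB5 lies at -0.72 and ITGB1 at 0.21, and the adaptors run from TLN2 at -0.65 to TNS4 at 0.75.

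ITGB5, the β5 subunit that pairs with αV as a vitronectin receptor, had the smallest p of the members, at rank 10 of all genes tested. In GRCh38 the gene (ENSG00000082781, minus strand) spans 124761948 to 124901418 of chromosome 3. The shControl libraries held 7570, 7386 and 7566 normalized counts of it, and the shZDHHC20 libraries 4531, 4734 and 4401, in the order of their replicate numbers, which is kept below. Every shZDHHC20 library was well below every shControl library, and shZDHHC20 replicate 2 was the nearest to them. The log2 fold change was -0.72 (95% confidence interval -0.82 to -0.62, adjusted p = 1.19e-06 from limma), 60.7% of the control. It stayed past the threshold in all 17 alternatives, between -0.75 and -0.68.

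ITGB1, the β1 subunit and common partner of collagen, laminin and fibronectin receptors, moved the other way. The gene (ENSG00000150093, minus strand) spans 32900319 to 33005792 of chromosome 10. The shControl libraries held 27059, 27103 and 27342 normalized counts and the shZDHHC20 libraries 32115, 28868 and 33306. The shControl libraries were almost equal, and the shZDHHC20 libraries were all above them, with replicate 2 nearest. The log2 fold change was 0.21 (95% confidence interval 0.10 to 0.32, adjusted p = 0.0171 from limma). It was no longer past the threshold without any one of the libraries other than shZDHHC20 replicate 2 (adjusted p from 0.0694 to 0.124), and without shZDHHC20 replicate 2 the log2 fold change was 0.27 (adjusted p = 4.22e-06). It was past the threshold in 11 of 17 alternatives.

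The fibronectin receptor subunit α5 (ITGA5, ENSG00000161638, chromosome 12 from 54395261 to 54419460, minus strand) fell. It had 3975, 3780 and 3917 normalized counts in the shControl libraries and 3127, 3346 and 3153 in the shZDHHC20 libraries. The log2 fold change was -0.28 (95% confidence interval -0.39 to -0.17, adjusted p = 0.00255 from limma). The αV subunit (ITGAV), which pairs with beta subunits including β3, β5, β6 and β8, fell less. It went from 9987, 10147 and 10122 to 9172, 8710 and 9313, a log2 fold change of -0.16 (adjusted p = 0.0339 from limma). ITGAV was past the threshold in 9 of 17 alternatives, and not without any one shControl library or shZDHHC20 replicate 1 (adjusted p from 0.108 to 0.163).

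Of the collagen receptors, α2 (ITGA2, chromosome 5 from 52989326 to 53094779, plus strand) was at 2774, 2736 and 2779 in the shControl libraries and at 2332, 2133 and 2279 in the shZDHHC20 libraries. The fall of 0.30 on the log2 scale (95% confidence interval -0.41 to -0.19, adjusted p = 0.00233 from limma) was past the threshold in 16 of 17 alternatives. The neighbouring gene ITGA1, which encodes α1, another collagen receptor subunit, was at 34.4, 29.1 and 31.0 and then at 13.8, 11.3 and 20.2. Its log2 fold change of -1.10 was the lowest of the members but had a wide interval (-1.80 to -0.40, adjusted p = 0.0451 from limma), and it was past the threshold in 7 of 17 alternatives. Among the fits without 1 library it stayed past the threshold only when shZDHHC20 replicate 3 was left out (0.0352, against 0.0746 to 0.173). ITGA10 and ITGA11, the other collagen-binding subunits listed, were not called, and ITGA10 ranged from 31.3 to 46.1 in the shControl and from 40.4 to 74.2 in the shZDHHC20 libraries.

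Of the laminin receptors, α3 (ITGA3, chromosome 17 from 50055968 to 50090481, plus strand) had 15479, 15290 and 15714 in the shControl libraries and 13504, 14064 and 13634 in the shZDHHC20 libraries. The groups were apart by more than the spread within either, with a log2 fold change of -0.17 (adjusted p = 0.0128 from limma). Under quantile normalization it was -0.08 (adjusted p = 0.182), and it was past the threshold in 10 of 17 alternatives, but not without any one shControl library or shZDHHC20 replicate 1 (0.0677 to 0.109). For α6 (ITGA6) and β4 (ITGB4), which form the hemidesmosome receptor, no change was detectable, with log2 fold changes of -0.06 (95% confidence interval -0.20 to 0.07) and -0.08 (-0.22 to 0.05). ITGB4 lay between 841 and 888 in the shControl libraries and between 802 and 840 in the shZDHHC20 libraries, a narrow gap. ITGA6 was lowest in shZDHHC20 replicate 2 (4204) and between 4862 and 5092 in the other 5 libraries. ITGA7 lay between 19.1 and 40.05 in all libraries.

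The remaining subunits were at low values. ITGB3, another vitronectin receptor subunit, was 117, 133 and 125 in the shControl libraries and 114, 98.6 and 100.1 in the shZDHHC20 libraries (log2 fold change -0.26, adjusted p = 0.272 from limma). ITGAE, the αE subunit that binds E-cadherin, was between 299 and 314 in the shControl group and at 217, 317 and 234 in the shZDHHC20 group, and it was past the threshold without shZDHHC20 replicate 2 (-0.43, adjusted p = 0.00486). ITGB2, the leukocyte subunit, and ITGB8 overlapped between groups, from 73.8 to 99.6 and from 42.3 to 95.4. ITGA9, ITGA11, ITGB6 and ITGB7 reached at most 9.54 in any library, a depth at which no change could be measured.

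**Figure D2:**
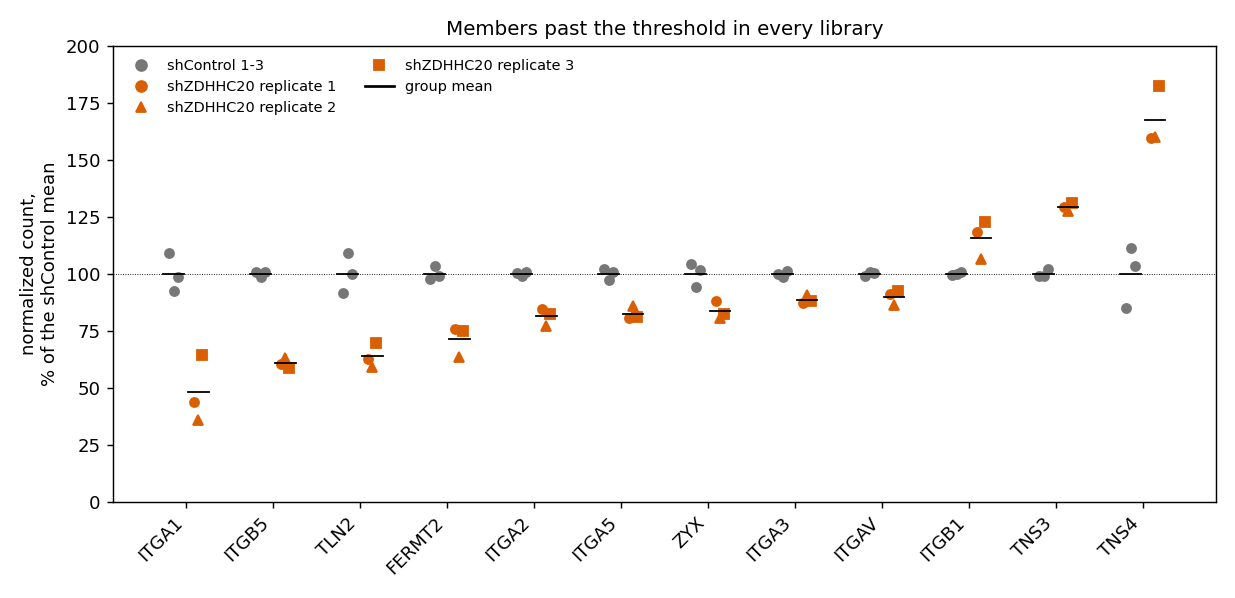
Normalized count of the 12 members past the threshold in each library, as a percentage of that gene's shControl mean (y axis, linear), with shControl libraries in grey, the 3 shZDHHC20 replicates in orange by marker shape, and group means as bars. The orange points of ITGB5 lie together near 60.7% of the control, and those of ITGB1 are spread, with replicate 2 lowest.

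Levels of different subunits were compared after division by the median length of the GENCODE coding transcripts, as normalized counts per kilobase. Among alpha subunits in the shControl group the order was ITGA3 (3623 ± 49.7, SD, n = 3), ITGAV (1461 ± 12.4), ITGA6 (1390 ± 17.2), ITGA5 (876 ± 22.5) and ITGA2 (351 ± 3.01). In the shZDHHC20 group ITGAV (1313 ± 45.7) and ITGA6 (1334 ± 131) overlapped. The place of ITGA6 depends on the length used. Divided by the longest coding transcript, ITGA6 was at 877 ± 10.8 in the shControl group, within the spread of ITGA5 (876 ± 22.5) and below ITGAV (1435 ± 12.2), and at 841 ± 82.7 in the shZDHHC20 group, again below ITGAV (1289 ± 44.9). Among beta subunits ITGB1 came first (7286 ± 40.8), then ITGB5 (1717 ± 24.1) and ITGB4 (154 ± 4.69), and these 3 kept that order in the shZDHHC20 group and with either length.

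As a share of the summed beta subunit level, ITGB1 went from 78.7%, 78.9% and 78.8% in the shControl libraries to 87.1%, 85.6% and 87.9% in the shZDHHC20 libraries. ITGB5 went from 18.8%, 18.3% and 18.6% to values between 9.91% and 12.0%, highest in replicate 2. The mean shares differed by 8.06 and by -7.78 percentage points, and the groups did not overlap (exact permutation test, two-sided, p = 0.1 for each, the smallest that 3 libraries against 3 allow). The level of ITGB1 was 4.24 ± 0.0561 times that of ITGB5 in the shControl group and 8.11 ± 0.879 times in the shZDHHC20 group (SD, n = 3, exact permutation p = 0.1).

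The alpha mixture moved less. ITGA3 held 46.5% ± 0.32 and 46.2% ± 1.5 of the summed alpha level (SD, n = 3 in each group), ITGA5 11.2% ± 0.24 and 10.4% ± 0.50, and ITGA2 4.50% ± 0.015 and 4.11% ± 0.16. The largest change was in ITGA6, with 17.8% ± 0.34 and 19.2% ± 1.7, which overlapped between groups (exact permutation p = 0.4). Over the 19 member subunits tested, the shares of 6 did not overlap between groups. By normalized count, 28.6% of all genes tested did not overlap. Shares within a class are tied to each other, since a rise of one lowers the rest. The summed alpha level was 7802, 7744 and 7852 per kilobase in the shControl libraries and 6946, 6867 and 7051 in the shZDHHC20 libraries, or 89.2% of the control (exact permutation p = 0.1, two-sided). The summed beta level overlapped between groups, with 9209 to 9307 and 9047 to 10157 (exact permutation p = 0.4). The ratio of summed beta to summed alpha level was 1.19 ± 0.00344 and 1.39 ± 0.0668 (SD, n = 3, exact permutation p = 0.1).

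**Figure D3:**
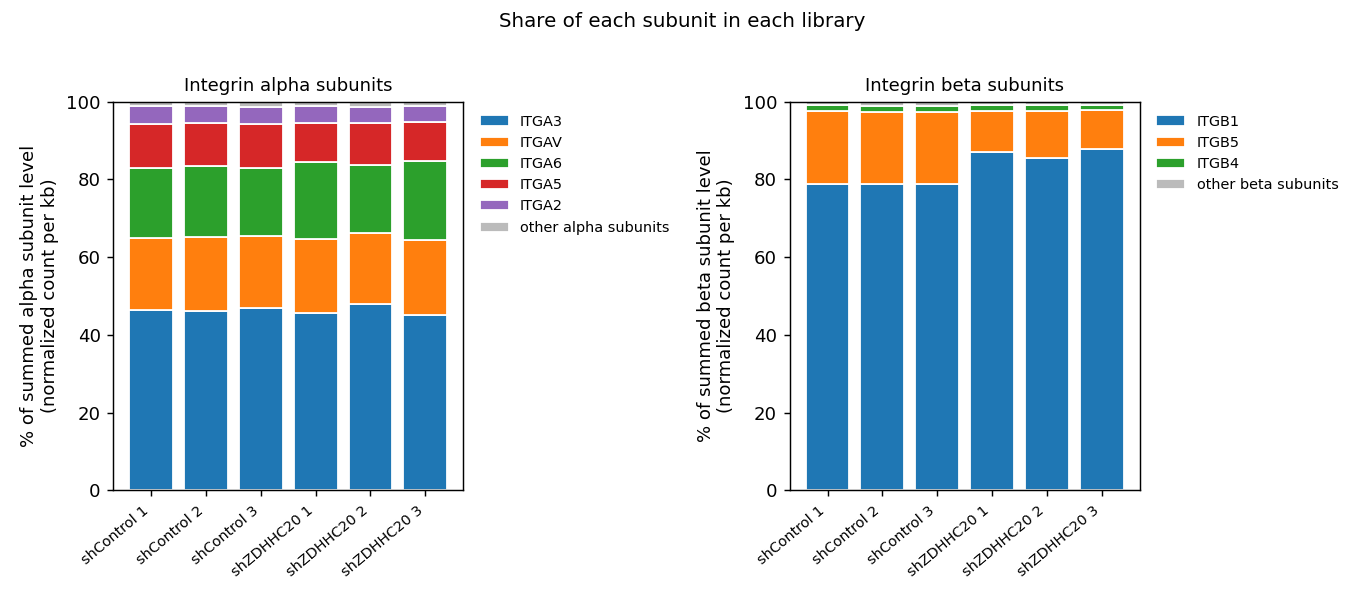
Share of each integrin subunit in the summed level of its class in each of the 6 libraries (y axis, percent of normalized counts per kilobase, linear from 0), with alpha subunits on the left and beta subunits on the right. The ITGB5 band narrows from 18.3% or more in the shControl libraries to 12.0% or less in the shZDHHC20 libraries, while the ITGA3 band is the largest alpha band in every library.

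Ratios within each library were also compared, on the normalized count scale. The ratio of ITGA2 to ITGB1 was lower by a factor of 1.42, that of ITGA5 to ITGB1 by 1.40 and that of ITGA3 to ITGB1 by 1.30, and none of these ratios overlapped between groups (exact permutation p = 0.1 for each, two-sided). The ratio of ITGAV to ITGB5 was higher by a factor of 1.48 (exact permutation p = 0.1), and that of ITGA6 to ITGB4 overlapped between groups (log2 difference 0.02, exact permutation p = 0.9). In all, 10 ratios were computed, and none can pass a correction in a design whose smallest p is 0.1.

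Talins connect the beta tail to actin and activate the receptor. TLN2, the less widespread talin (ENSG00000171914, chromosome 15 from 62390526 to 62844631, plus strand), was at 444, 528 and 484 in the shControl libraries and at 303, 286 and 339 in the shZDHHC20 libraries. It fell by 0.65 on the log2 scale (95% confidence interval -0.86 to -0.44, adjusted p = 0.000707 from limma). For TLN1 no change was detectable, with a log2 fold change of 0.03 (95% confidence interval -0.06 to 0.13). The ratio of TLN2 to TLN1 was lower in every shZDHHC20 library (log2 difference -0.68, exact permutation p = 0.1, two-sided).

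Kindlins act with talin on the beta tail. FERMT2 (kindlin-2, ENSG00000073712, chromosome 14 from 52857268 to 52952435, minus strand) was at 923, 974 and 932 in the shControl libraries and at 712, 597 and 706 in the shZDHHC20 libraries. All shZDHHC20 libraries were lower, replicate 2 most, with a log2 fold change of -0.49 (95% confidence interval -0.66 to -0.33, adjusted p = 0.00116 from limma). FERMT1 (kindlin-1) was between 11.7 and 27.9 in all libraries, too low for a change of the size of FERMT2 to be told (95% confidence interval -1.01 to 0.66).

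Tensins bind beta tails in mature adhesions, and TNS4 lacks the actin-binding part that TNS3 has. TNS3 (ENSG00000136205, chromosome 7 from 47275154 to 47582558, minus strand) was at 11128, 11121 and 11445 in the shControl libraries and at 14542, 14319 and 14714 in the shZDHHC20 libraries. The spread within each group was small beside the gap, with a log2 fold change of 0.37 (95% confidence interval 0.29 to 0.46, adjusted p = 6.15e-05 from limma). TNS4 (ENSG00000131746, chromosome 17 from 40475828 to 40501597, minus strand) was at 124, 163 and 151 and then at 233, 234 and 267, and it rose by 0.75 on the log2 scale (95% confidence interval 0.48 to 1.02, adjusted p = 0.0018 from limma). Both were past the threshold in 16 of 17 alternatives. The ratio of TNS4 to TNS3 was higher by a factor of 1.30 (exact permutation p = 0.1, two-sided).

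ZYX (zyxin), a LIM protein of tensed adhesions on chromosome 7 from 143381080 to 143391111, was at 2835, 2554 and 2755 in the shControl libraries and at 2387, 2190 and 2238 in the shZDHHC20 libraries. Its fall of 0.26 on the log2 scale (adjusted p = 0.0109 from limma) was past the threshold in 14 of 17 alternatives, and not without shControl replicate 1 (0.0991) or 3 (0.0909). The actin-binding scaffold VCL (vinculin) was 10169, 10147 and 10353 and then 9738, 8943 and 9918, below in every library but not called (-0.10, adjusted p = 0.209 from limma). PXN (paxillin) overlapped between groups, from 6539 to 7112 and from 6317 to 6994.

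In the complex of ILK, PINCH and parvin, LIMS1 (PINCH-1) had a log2 fold change of 0.02 (95% confidence interval -0.09 to 0.14) and PARVA of 0.08 (-0.05 to 0.21). PARVB was 570, 541 and 534 in the shControl libraries and 438, 482 and 468 in the shZDHHC20 libraries, with no overlap, just outside the threshold (-0.25, adjusted p = 0.0543 from limma). ILK, the pseudokinase of the complex, was listed at only 23.1 to 56.4, and its gene overlaps TAF10 on the other strand, so its value is uncertain.

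The signalling members were not called. PTK2 (FAK) had a log2 fold change of 0.05 (95% confidence interval -0.11 to 0.22) and SRC of -0.01 (-0.16 to 0.13). BCAR1 (p130Cas), a FAK and SRC substrate, was 2504, 2511 and 2680 in the shControl libraries and 2137, 2393 and 2238 in the shZDHHC20 libraries, lower in 3 of 3 and just outside the threshold (-0.19, adjusted p = 0.0534 from limma). Without shZDHHC20 replicate 2, BCAR1 (-0.23, adjusted p = 0.00271), PARVB (-0.28, 0.0145), PXN (-0.11, 0.0416) and PTK2 (0.15, 0.0401) were past the threshold, and ITGA1 was not (-0.91, 0.0746).

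At the criteria stated in the study, a p under 0.01 and a fold of at least 1.5, 4 members were left, ITGA1, ITGB5 and TLN2 lower and TNS4 higher. Of all genes tested 2.45% were within them, 1.3% lower and 1.15% higher. Whether reads were counted by strand is not given in the sources used here. Of the 12 members called, ITGA3, TNS3 and TNS4 overlap no gene on the other strand in GENCODE 29, ITGA1 also shares its strand with PELO, and the values of the other 9 are uncertain to the extent that reads of overlapping genes were counted together.

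Wider lists of adhesion genes, which hold none of the members, were read from the same fit. The list of other adhesion partners includes the alpha subunits ITGA2B, ITGAL, ITGAM, ITGAX and ITGAD, none of them called. Among these only ITGAM did not overlap between groups (log2 fold change -0.98, adjusted p = 0.0745 from limma). Of 82 other adhesion partners tested, 12 were higher and 9 lower (25.6% called, against 11.5% of all genes tested, median log2 fold change 0.03). The 3 with the smallest adjusted p were SVIL (supervillin, an actin-binding protein, from 2351 ± 70.5 to 3074 ± 99.1, SD, n = 3), ASAP1 (an Arf GTPase activator at adhesions, from 6178 ± 49.9 to 4890 ± 357) and LPP (a relative of zyxin, from 2069 ± 70.0 to 2605 ± 103). LPP rose (log2 fold change 0.33, adjusted p = 0.00138 from limma) where ZYX fell.

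Of 35 integrin ligands tested, 15 were lower and 3 higher (51.4% called, median -0.18). Of all genes tested, 11.5% were called, 6.84% lower and 4.61% higher, a share not matched to the levels of either wider list. The ligands called were led by ICAM1, the ligand of leukocyte integrins. ICAM1 fell from 1432, 1490 and 1486 to 905, 921 and 824 (log2 fold change -0.74, adjusted p = 1.3e-05 from limma). NID1 (nidogen-1, a basement membrane linker) rose from 3690, 3660 and 3658 to 5268, 4986 and 5352 (0.50, adjusted p = 2.08e-05), and the collagen VI chain COL6A1 fell from 356, 386 and 398 to 247, 246 and 218 (-0.68, adjusted p = 0.000469). The ligand list shares COL1A1 and COL3A1 with the fibroblast markers given above.

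**Figure D4:**
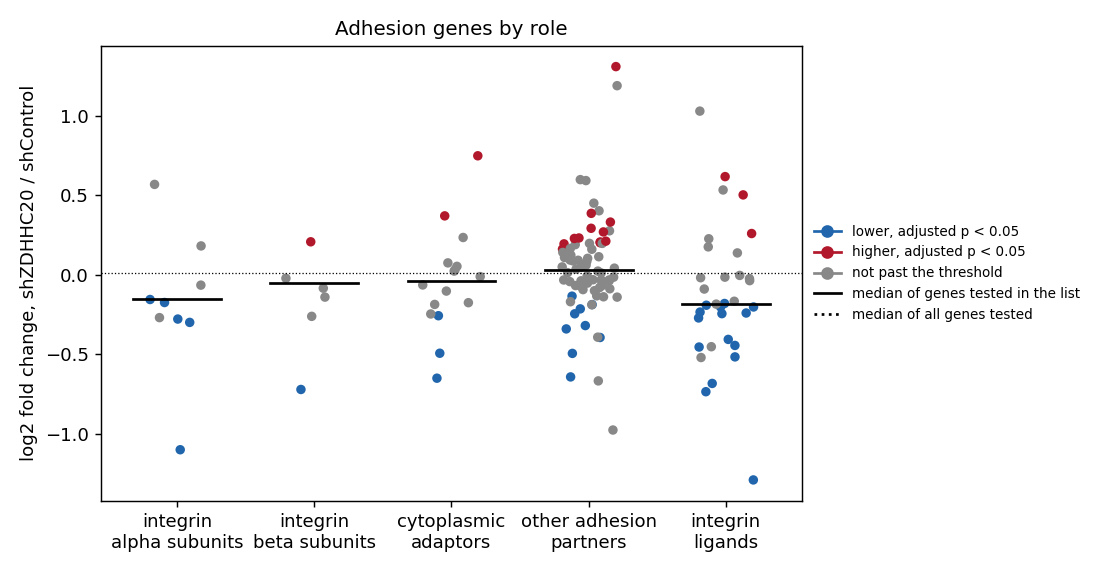
Log2 fold change of every tested gene with a mean of at least 10 by role (points, coloured by call), with the median over the tested genes of each list (bars) and of all genes tested (dotted line). The medians are -0.16 for alpha subunits, -0.05 for beta subunits, -0.04 for cytoplasmic adaptors, 0.03 for other adhesion partners and -0.18 for ligands.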

How the data were processed

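RNA-seq libraries of PANC-1 cells, 3 shControl and 3 shZDHHC20, were taken from the authors' deposited table. Its values are a normalized signal, read counts that the authors divided by 1 size factor per library, although the table is named as FPKM. Within a tolerance of 0.05, 100% of values above 0 were whole multiples of a step, and median-ratio scaling left the calls as they were. The submitters' processing notes name hg19. The aligner and counter are not given in the sources used here. Columns named siZDHHC20 and NC were matched to the titles by group and replicate number.

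Names came from the reference table (27175 of 27394 identifiers) and GENCODE 29 (219), which also gave positions and lengths on GRCh38, with lengths as the median over basic coding transcripts. Promoter windows came from RefSeq (GRCh38.p14).

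Analyses used R 4.3.3, limma 3.58.1, edgeR 4.0.16, DESeq2 1.42.0, Python 3.11.15 and matplotlib 3.10.9. Genes with a mean of at least 1 were fitted on log2(value + 0.1) with group as the term and eBayes with a mean-variance trend, and p-values were adjusted by Benjamini-Hochberg over all 22189 genes. Count tests on recovered reads were alternatives only. Members past an adjusted p of 0.05 were described in every library, the others by range, and the 3 genes with the smallest adjusted p were named from each wider list. The members and lists were chosen with earlier results of these data known. The fit was first tested on simulated data. No sample was left out of the main comparison.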

Additional observations from a re-analysis of the deposited data

How the results depend on the processing

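The 12 called members kept their direction in each of the 17 alternatives tried. Without the mean-variance trend of limma, 351 genes, 1 member (an integrin subunit) and 0 cytoplasmic adaptors were called (edgeR called 5 adaptors, DESeq2 6, and 6 of 16 adaptors had an unadjusted p under 0.05 without the trend), and the cause was not tested. No pairing by replicate number was seen, with deviations of same-numbered libraries correlated at -0.0223, -0.0136 and 0.00127 over 22189 genes. These include genes at low values, where count noise is large, so the correlations cannot exclude pairing. With a replicate block, 9 members and 4 integrin subunits were called, among 1942 genes. Leaving out 1 library moved the genes called between 1036 (without shControl replicate 1) and 4268 (without shZDHHC20 replicate 2), the members called between 7 and 16, the integrin subunits between 3 and 7, the adaptors between 4 (without shControl replicate 1 or 3) and 9, and the subunits with shares that did not overlap between 6 and 11.

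Direction changed in members that were not called: SRC (0.00809 with quantile normalization) and ITGA11 (-0.034 in edgeR). Over the fits that left out 1 library, log2 fold changes ran for SRC from -0.0376 to 0.0332, ITGA11 from -0.317 to 2.65, ITGB6 from -0.0492 to 2.79, ITGA7 from -0.107 to 0.426, ITGB2 from -0.154 to 0.0879, ITGB7 from -0.547 to 3.1, FERMT1 from -0.491 to 0.135, ITGA6 from -0.121 to 0.0176, ITGB8 from -0.387 to 0.199 and ILK from -0.105 to 0.426, and the change in the ITGA3 share from -1.12 to 0.22 percentage points. DESeq2 gave no adjusted p for some low members. The depth of 16575546 to 18441049 reads limits members under about 10 normalized counts.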
